A study of Homo sapiens with 6 samples.

Results

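The genes described here are 9 transcription factors that set or mark lung and gut endoderm lineages: NKX2-1, FOXA1, FOXA2, FOXA3, FOXJ1, HNF4A, GATA6, SOX2 and CDX2. They were chosen by gene symbol from a count table of 57445 genes, and all 9 have a row there. HNF4A (ENSG00000101076.11) and CDX2 (ENSG00000165556.9) had a count of 0 in all 6 libraries, and the other 7 were detected in every library.

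H358 is an established epithelial cell line from a human non-small cell lung cancer, and its RNA was sequenced in 6 libraries. Parental cells, labelled wild-type for BRMS1 (WT), and the isogenic clones C1 and C2 gave 2 libraries each, the clones being labelled BRMS1v2 with the protein change A273V on both copies. All groups grew in RPMI medium with serum, and no treatment is listed. Each clone is a single clone, so what is particular to a clone and what goes with the variant cannot be told apart, and whether replicates came from separate cultures is not given in the labels. BRMS1, a subunit of SIN3 histone deacetylase complexes, had 1341 and 1030 counts in the WT libraries and 813 to 951 in the clones, which do not show the allele.

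NKX2-1 is the homeobox factor that specifies lung epithelium and drives surfactant genes, and its loss in lung tumours is known to release gastric and gut programmes that FOXA1 and FOXA2 then serve. FOXA1, FOXA2 and FOXA3 are forkhead factors that open chromatin in endoderm; FOXA3 is best known from liver and gut. FOXJ1 is the master factor of motile cilia, SOX2 marks foregut and airway progenitors, GATA6 acts in early endoderm, lung and gut, HNF4A is the main nuclear receptor of liver and intestine, and CDX2 is the homeobox factor of intestine.

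Promoter sequences of 7 of the 9 genes (not FOXA2 or FOXJ1) were matched by symbol in RefSeq (build GRCh38.p14), and 3 are printed here for what they hold of the factors' own motifs. Each is the 250 bases before a start site, read 5′ to 3′ on the gene's strand, which is the minus strand in all 3. Capitals mark matches, on either strand, to the motif letters that were searched, which are spelled out after the sequences. NKX2-1 has 2 start sites in the table, and the first lies at chr14:36519557-36519806. FOXA1 lies at chr14:37595250-37595499 and CDX2 at chr13:27969316-27969565.
NKX2-1: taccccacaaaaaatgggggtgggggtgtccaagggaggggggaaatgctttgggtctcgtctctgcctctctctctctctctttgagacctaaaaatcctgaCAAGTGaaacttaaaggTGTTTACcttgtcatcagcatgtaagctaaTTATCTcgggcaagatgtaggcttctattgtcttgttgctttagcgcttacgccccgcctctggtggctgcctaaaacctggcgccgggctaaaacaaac
FOXA1: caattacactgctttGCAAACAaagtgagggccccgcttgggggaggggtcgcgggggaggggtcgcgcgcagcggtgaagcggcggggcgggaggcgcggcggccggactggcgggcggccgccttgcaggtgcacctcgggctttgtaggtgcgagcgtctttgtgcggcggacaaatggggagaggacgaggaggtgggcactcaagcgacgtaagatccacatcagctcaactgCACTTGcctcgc
CDX2: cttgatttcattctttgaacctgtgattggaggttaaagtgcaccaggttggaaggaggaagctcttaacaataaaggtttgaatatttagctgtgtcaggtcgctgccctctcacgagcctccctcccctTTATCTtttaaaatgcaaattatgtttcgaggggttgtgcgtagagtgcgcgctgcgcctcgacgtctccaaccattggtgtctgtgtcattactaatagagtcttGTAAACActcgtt
The NKX2-1 window holds the NK2 letters, the first forkhead letters and the reverse complement of the GATA letters, in that order. The FOXA1 window holds the reverse complement of the second forkhead letters near its far end. It holds the reverse complement of the NK2 letters 12 to 7 bases before the start. The CDX2 window, in a gene with no counts, holds the reverse complement of the GATA letters and that of the first forkhead letters. The latter lies 13 to 7 bases before the start. Of 35114 promoter windows of the same length, 2.98% hold the first forkhead letters, TGTTTAC, and 3.23% the second, TGTTTGC. The NK2 letters CAAGTG occur in 9.5%, the CDX letters TTTATGG in 2.3% and the GATA letters AGATAA in 9.17%. The SOX letters CATTGTT occur in 2.87% and the HNF4 letters CAAAGTCCA in 0.325%. No pair of these motifs overlaps in the windows shown. None of them occurred in the windows of FOXA3, GATA6 or SOX2. At the second NKX2-1 start site the second forkhead letters lay 241 to 235 bases before the start. At the first of 2 HNF4A start sites the GATA letters lay 26 to 21 bases before the start, and the other HNF4A window held no match. A match is a run of letters and not a measured binding site.

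Levels are given as CPM, counts scaled by library size, and are set between genes only per kilobase of merged exon. Per kilobase, NKX2-1 stood at 34.7 CPM over the 6 libraries, SOX2 at 26.8, FOXA2 at 24.0 and FOXA1 at 17.3. These 4 factors lay between percentiles 83.8 and 92.9 of the 16674 tested genes with a length. FOXJ1 stood at 2.70 CPM per kilobase and GATA6 at 2.47, at percentiles 42.9 and 41.2. FOXA3 was lowest of the 7, at 0.328 CPM per kilobase and percentile 13.2. Ranges over libraries overlapped between each neighbour in the order of the first 4, NKX2-1 (20.6 to 49.0), SOX2 (21.7 to 32.9), FOXA2 (16.0 to 27.7) and FOXA1 (12.3 to 20.0). FOXJ1 (0.835 to 4.10) overlapped with both GATA6 (1.90 to 2.94) and FOXA3 (0.0645 to 1.04), whereas GATA6 and FOXA3 did not overlap, nor did FOXA1 and FOXJ1. For HNF4A and CDX2, a floor of 3 counts was set, which would be 0.0848 to 0.105 CPM depending on the library. This floor allows for counting error only and is not an absolute limit.

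**Figure D1:**
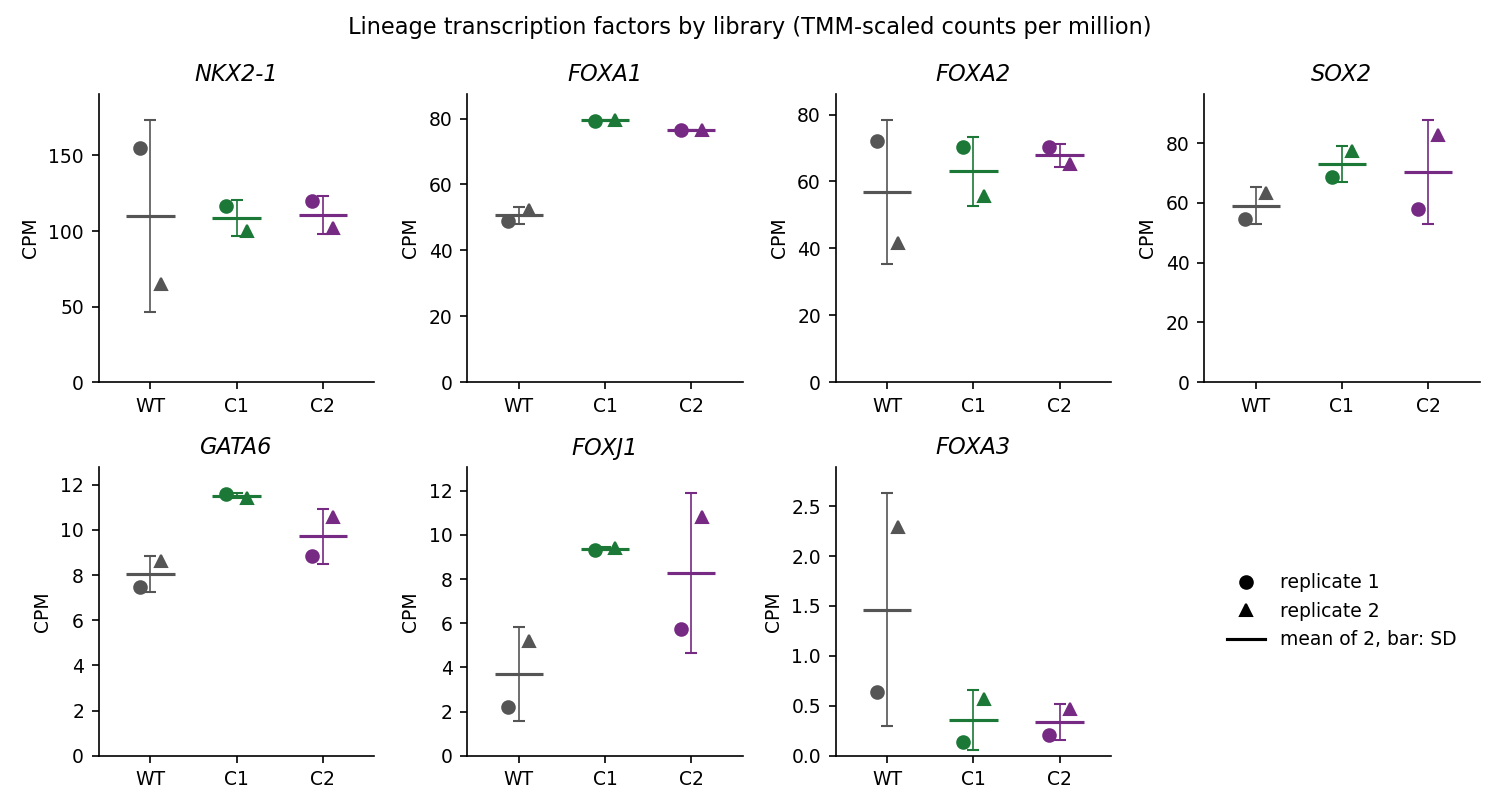
CPM of the 7 detected factors (vertical axes, each from 0) in WT, C1 and C2, with circles for replicate 1, triangles for replicate 2, and lines and bars for the mean and SD of the 2 libraries. FOXA1, FOXJ1 and GATA6 are higher in all 4 clone libraries than in both WT libraries, FOXA3 is lower, and NKX2-1, FOXA2 and SOX2 overlap; HNF4A and CDX2, with counts of 0, are not drawn.

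The clones were compared with WT by edgeR's quasi-likelihood test over 17129 genes, with Benjamini-Hochberg adjustment and a call at an adjusted p below 0.05. This was done without and with the replicate number as a block, and the second fit is called blocked. Without the block no factor was called in either clone, where 0.0117% of all tested genes were called in each, or in the mean of the clones, where 0.198% were (0.0234% higher and 0.175% lower). With the block FOXA1 and FOXJ1 rose and FOXA3 fell in C1 and in C2, against 7.03% of all genes called in C1 (2.96% higher and 4.07% lower) and 4.54% in C2 (1.94% and 2.59%). In the mean of both clones the same 3 of the 7 tested factors were called with the block, beside 9.74% of all genes (4.12% higher and 5.63% lower). The comparisons of C1 and C2 share the WT libraries, so their like values are not separate evidence. The median log2 difference of the 7 factors in the blocked mean of the clones was 0.28, beside -0.01 over all genes tested. Of all genes, 11.9% had all 4 clone libraries above both WT libraries and 11.9% had all 4 below; among the 7 factors there were 3 and 1.

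FOXA1 (ENSG00000129514.4) was higher in both clones. WT replicates 1 and 2 had 48.9 and 52.4 CPM, the C1 pair 79.3 and 79.6, and the C2 pair 76.5 and 76.6. The groups did not overlap, and replicates of a group lay close together, with means of 50.6 ± 2.5, 79.5 ± 0.192 and 76.5 ± 0.0606 CPM (SD, n = 2 each). Blocked, FOXA1 was 1.57-fold higher in C1 (log2 difference 0.65, SE 0.15, 95% interval 0.33 to 0.98, adjusted p = 0.0203) and 1.51-fold in C2 (0.60, SE 0.15, 0.27 to 0.92, adjusted p = 0.0407). Without the block the differences were the same size, at 0.65 and 0.60, and the adjusted p was 0.361 and 0.510. In the mean of the clones the adjusted p was 0.0105 blocked and 0.226 not blocked, and DESeq2 without a block gave 0.0273. The blocked call in the mean of the clones ended without C2 replicate 1 (adjusted p = 0.123) or C2 replicate 2 (0.132), with log2 differences of 0.62 and 0.63. The C1 call also ended without C1 replicate 1 (0.0612) or C1 replicate 2 (0.0580), and the C2 call without WT replicate 1 (0.0782). The fits with a library left out leave fewer residual degrees of freedom. An exon of TTC6 on the opposite strand overlaps FOXA1 in GENCODE 29, and since no strand setting is given the reads of the pair cannot be told apart; TTC6 had 38 to 65 counts per library against at least 1528 for FOXA1.

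FOXJ1 (ENSG00000129654.7) was the factor with the largest increase. The WT pair had 2.21 and 5.22 CPM, the C1 pair 9.33 and 9.42, and the C2 pair 5.72 and 10.8, so the higher WT library lay just under the lower C2 library. Group means were 3.71 ± 2.13, 9.37 ± 0.0662 and 8.28 ± 3.61 CPM (SD, n = 2 each). Blocked, FOXJ1 was 2.75-fold higher in C1 (log2 difference 1.46, SE 0.30, adjusted p = 0.0136) and 2.27-fold in C2 (1.18, SE 0.30, adjusted p = 0.0466), and it was not called without the block (1.34, adjusted p = 0.594, and 1.16, 0.753). The blocked call in the mean of the clones (1.32, SE 0.27, adjusted p = 0.0103) ended without C2 replicate 1 (1.40, adjusted p = 0.120) or C2 replicate 2 (1.21, 0.189). The C1 call also ended without C1 replicate 1 (0.94, adjusted p = 0.0740) and the C2 call without WT replicate 1 (0.85, 0.0775). Not blocked, leaving out WT replicate 2 moved the differences to 2.09 in C1 and 1.91 in C2. RNF157-AS1 overlaps FOXJ1 on the opposite strand and had 15 to 58 counts per library, against 69 to 350 for FOXJ1, so the share of reads that belongs to each is uncertain.

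FOXA3 (ENSG00000170608.2) went the other way, at a low level. WT replicates 1 and 2 had 20 and 68 counts, the C1 pair 5 and 17, and the C2 pair 6 and 15. On the CPM scale these were 0.640 and 2.29, 0.141 and 0.568, and 0.211 and 0.464. All 4 clone libraries were below both WT libraries, and within each group replicate 2 was the higher. Group means were 1.46 ± 1.17, 0.355 ± 0.302 and 0.337 ± 0.179 CPM (SD, n = 2 each). Blocked, the log2 difference was -2.04 in C1 (SE 0.44, adjusted p = 0.0151) and -2.05 in C2 (SE 0.45, adjusted p = 0.0219), or 0.243 and 0.242 of the WT level. Not blocked, the adjusted p was 0.654 and 0.753. The blocked call in the mean of the clones (-2.04, SE 0.37, adjusted p = 0.00373) ended when either C2 library was left out (-2.17, adjusted p = 0.0694, without replicate 1 and -1.81, 0.132, without replicate 2), and likewise without WT replicate 2 (-1.86, 0.0720). The C1 call also ended without C1 replicate 2 (-2.28, 0.0574). Not blocked, the C1 difference was -0.86 without WT replicate 2, -1.34 without C1 replicate 1, -2.69 without WT replicate 1 and -3.32 without C1 replicate 2. For C2 it was -0.90 without WT replicate 2, -2.73 without WT replicate 1 and -2.79 without C2 replicate 2. FOXA1 and FOXA3, members of 1 subfamily, were thus called in opposite directions in the same fit, with FOXA2 not called between them.

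**Figure D2:**
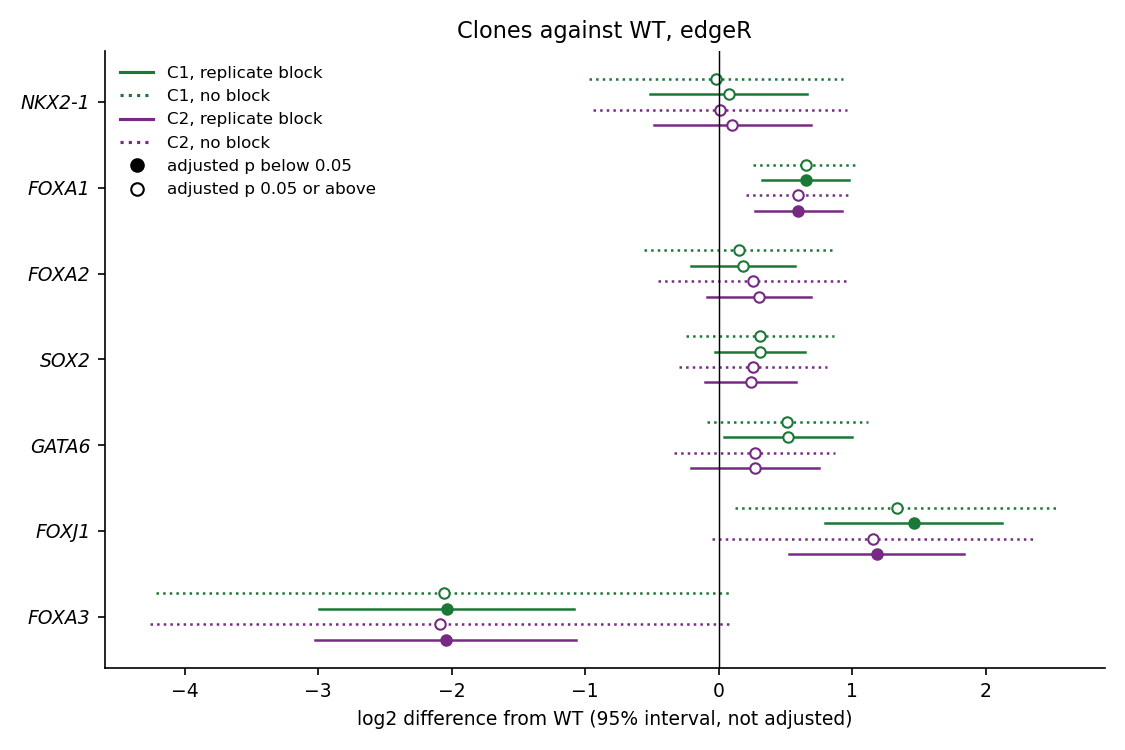
Log2 difference of C1 (green) and C2 (purple) from WT for the 7 tested factors (horizontal axis), with 95% intervals not adjusted for the number of genes, solid with the replicate number as a block and dotted without it. Filled points, an adjusted p below 0.05 in edgeR, occur only with the block and only for FOXA1, FOXJ1 and FOXA3; the NKX2-1 points lie between -0.02 and 0.10.

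NKX2-1 (ENSG00000136352.13), the lung factor, had like mean levels in all groups and spread widely in WT. The WT pair had 155 and 65.1 CPM, the C1 pair 117 and 100, and the C2 pair 120 and 102, so that both clones lay between the WT libraries. Means were 110 ± 63.6, 108 ± 11.8 and 111 ± 12.7 CPM (SD, n = 2 each). The blocked log2 difference was 0.07 in C1 (95% interval -0.51 to 0.66, adjusted p = 0.906) and 0.10 in C2 (-0.48 to 0.69, adjusted p = 0.877), so changes in either direction lie within the intervals. Not blocked, the difference was -0.02 in C1 and 0.01 in C2. This value depended on both WT libraries. Blocked, the log2 difference in the mean of the clones was 0.64 without WT replicate 1 and -0.39 without WT replicate 2. NKX2-1-AS1, which overlaps on the opposite strand, had 43 to 97 counts per library against 1935 to 4848 for NKX2-1, and it too was highest in WT replicate 1 and lowest in WT replicate 2. RP11-896J10.3, a noncoding gene that shares exonic sequence with NKX2-1 on the same strand, had 9 to 19 counts.

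FOXA2 (ENSG00000125798.9) followed the same order of libraries in WT. The WT pair had 72.1 and 41.5 CPM, the C1 pair 70.2 and 55.8, and the C2 pair 70.3 and 65.3. Every clone library lay between the WT libraries. The blocked log2 difference was 0.18 in C1 (95% interval -0.21 to 0.57, adjusted p = 0.625) and 0.30 in C2 (-0.09 to 0.69, adjusted p = 0.407). Without WT replicate 1 the blocked mean of the clones was 0.54 higher (adjusted p = 0.0491), and without WT replicate 2 it was -0.03. GENCODE 29 lists a protein-coding gene, ENSG00000283932, that shares exonic sequence with FOXA2 on the same strand and has no value here. LINC00261, a noncoding gene beside FOXA2, was not called (0.58 in the blocked mean of the clones, adjusted p = 0.122).

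SOX2 (ENSG00000181449.2) and GATA6 (ENSG00000141448.4) were a little higher in the clones and were not called in any fit to all 6 libraries. SOX2 stood at 54.6 and 63.4 CPM in the WT pair, 68.7 and 77.4 in the C1 pair, and 58.1 and 82.7 in the C2 pair, and C2 replicate 1 fell between the WT libraries. Its blocked log2 difference was 0.31 in C1 (95% interval -0.03 to 0.65, adjusted p = 0.282) and 0.24 in C2 (-0.10 to 0.58, adjusted p = 0.456). GATA6 stood at 7.48 and 8.62 CPM in the WT pair, 11.6 and 11.4 in the C1 pair, and 8.84 and 10.6 in the C2 pair. The GATA6 groups did not overlap, yet the lowest C2 library exceeded the highest WT library by less than the SD of either group (0.801 in WT, 1.23 in C2). Its blocked difference was 0.52 in C1 (0.04 to 1.00, adjusted p = 0.191) and 0.27 in C2 (-0.21 to 0.75, adjusted p = 0.569). GATA6-AS1, which shares exonic sequence with GATA6 on the opposite strand, had 11 to 33 counts per library against 234 to 410 for GATA6. SOX2-OT, the noncoding gene that SOX2 lies in, had 8 to 24 counts.

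No factor was called between the clones. For C2 against C1 edgeR called 0% of all genes with or without the block (at an unadjusted p below 0.05 there were 61 genes without it and 642 with it, and DESeq2 called 0). The blocked count rose to 343 without C1 replicate 1, 102 without WT replicate 1, 90 without WT replicate 2 and 62 without C1 replicate 2. Blocked differences of the 7 factors ran from -0.28 for FOXJ1 (95% interval -0.91 to 0.35) to 0.12 for FOXA2 (-0.27 to 0.51). The widest interval, that of FOXA3, ran from -1.20 to 1.19.

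Levels of the factors also differed between replicate numbers. In the blocked fit 24.7% of all genes differed between replicate 2 and replicate 1, and of the 7 factors FOXA3 was called, 3.24-fold higher in replicate 2 (log2 difference 1.69, SE 0.38, adjusted p = 0.00650). That call ended without C2 replicate 1 (adjusted p = 0.0703) or C2 replicate 2 (0.0672). NKX2-1 had a log2 difference of -0.57 (adjusted p = 0.0857), FOXA2 had -0.41 (0.0584), FOXJ1 had 0.69 (0.0561) and SOX2 0.30 (0.109), and none of these passed. FOXA1 (0.04, adjusted p = 0.861) and GATA6 (0.15, 0.601) had the smallest values. Within replicate 1, NKX2-1 was lower in both clones than in WT (-0.41 in C1 and -0.37 in C2), and within replicate 2 it was higher in both (0.62 and 0.64). FOXA2 showed -0.04 and -0.04 within replicate 1 and 0.43 and 0.65 within replicate 2. Of all genes, 18.4% had both clones on 1 side of WT in replicate 1 and on the other in replicate 2. FOXA1 differed by 0.70 and 0.65 within replicate 1 and by 0.60 and 0.55 within replicate 2. FOXJ1 differed by 2.05 and 1.35, then 0.84 and 1.05, and FOXA3 by -1.78 and -1.36, then -1.90 and -2.15, so each of these 3 had 1 sign in all 4 differences.

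**Figure D3:**
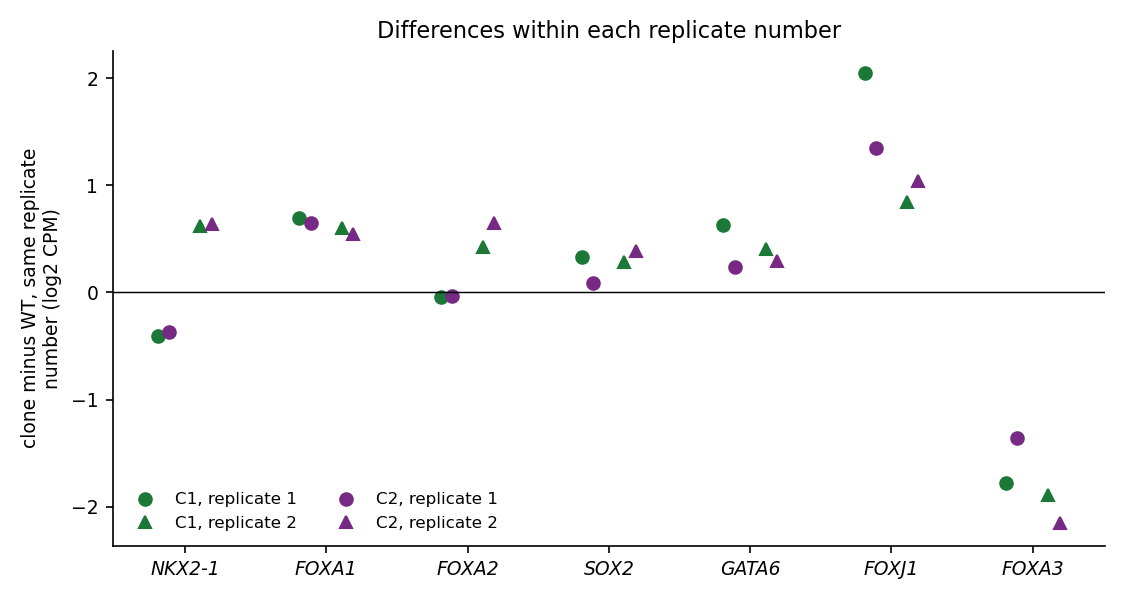
Difference of each clone from the WT library with the same replicate number (vertical axis, log2 CPM), for the 7 tested factors, with circles for replicate 1, triangles for replicate 2, green for C1 and purple for C2. NKX2-1 lies below 0 in replicate 1 (-0.41 and -0.37) and above it in replicate 2 (0.62 and 0.64), while FOXA1, FOXJ1, GATA6, SOX2 and FOXA3 each stay on 1 side.

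Other genes nearest to each factor in their profile over the 6 libraries were found by the root mean square difference of centred log2 CPM. For FOXA1 the 3 nearest of the 17129 tested genes were FBXO34, GAPVD1 and NFYA (0.0403 to 0.0432, beside 0.400 for the median gene). For NKX2-1 they were PLD2 (0.0420), NOL12 and TUBGCP6 (0.0932 and 0.0937, beside 0.464). For FOXA2 they were LDOC1, TECR and FXYD1 (0.0455 to 0.0675), for SOX2 WDR60, TMEM219 and FAM129B (0.0159 to 0.0410), for GATA6 TMCO3, KIAA0430 and MBNL2 (0.0537 to 0.0595), and for FOXJ1 TNFSF13B, TMCC3 and ARMCX1 (0.145 to 0.238). FOXA3 was below the level set for this search.

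Of 38 genes of the lists and families described next that were called in the blocked mean of the clones, 5 (ID2, CTSH, MUC13, TRIM29 and S100A2) kept their call with each library left out in turn. The other 33 lost it without C2 replicate 1 or C2 replicate 2, and 1 of the 38, CTSH, was called without the block. MUC13 passed the filter on low counts only through the clones and TRIM29 only through WT, each where it is high. For these genes a kept call is thus no separate support. The 38 are the called genes of the lists below and those named from the families. Called FOX genes that are not named below are not among them. Losses on leaving out other libraries are given with the genes named below or here. AGR3 of the gastric list also lost its call without either WT library or C1 replicate 2. CLCA2 of the squamous list lost its call without WT replicate 2 or C1 replicate 2. NGFR of that list lost its call without either WT library, and PTHLH without WT replicate 1.

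The families of the factors were counted next, the factors themselves included, in the blocked mean of the clones. Of all genes tested, 4.12% rose and 5.63% fell there, to be set beside each count of the families and lists that follow. Among 26 tested FOX genes 5 rose and 3 fell, the factors FOXA1, FOXJ1 and FOXA3 among them. Of the others called, the 3 with the largest differences are named. FOXD2 rose (0.82, adjusted p = 0.0279), and FOXD3 (-1.41, 0.0185) and FOXP2 (-1.04, 0.0275) fell. The remaining FOX genes that rose had smaller differences and are not named. Of 9 tested SOX genes 0 rose and 2 fell, SOX6 (-1.35, adjusted p = 0.0402) and SOX12 (-0.75, 0.0138), while SOX4 at 377 CPM was the most abundant and was not called (0.45, 0.0818). GATA2 was the only other GATA gene tested and fell (-0.92, adjusted p = 0.00849). Of 6 tested NK homeobox genes 0 rose and 2 fell: NKX2-8, the neighbour of NKX2-1, from 2.88 and 0.976 CPM in WT to between 0.234 and 1.09 in the clones (-1.62, adjusted p = 0.00611), and NKX1-2 (-0.80, 0.0181). Without the block none of these family members was called. Blocked calls also ended without WT replicate 2 for FOXD2 (adjusted p = 0.211), FOXD3 (0.172) and FOXP2 (-0.48, 0.473), and without WT replicate 1 for SOX12 (0.167) and NKX1-2 (0.0934). SOX6 also lost its call without either WT library or C1 replicate 1 (0.0535 to 0.197). In the HNF family 5 of 7 genes were tested and 0 called; HNF4G, the paralogue of HNF4A, had means of 18.9 CPM for WT, 28.9 for C1 and 30.6 for C2 (0.59, adjusted p = 0.0521). All 3 CDX genes had a count of 0 in every library.

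Of 30 other lung and airway factors 24 were tested, and 2 rose and 4 fell in the blocked mean of the clones, beside 4.12% and 5.63% of all genes. The median was 0.08, and 0 of the 24 were called without the block. HOPX, an alveolar cofactor, rose (0.57, adjusted p = 0.0262), as did ELF3 (0.51, 0.0223), and ID2 (-2.01, 3.51e-05), CEBPD (-0.56, 0.0343) and FOXP2 fell, with ID2 at 10.5 and 23.9 CPM in WT and 2.80 to 6.37 in the clones. Blocked, HOPX also lost its call without WT replicate 2 (0.176), CEBPD without WT replicate 1 (0.286) or C1 replicate 1 (0.0740), and ELF3 without either WT library (0.0817 and 0.0512). The most abundant were ELF3, GRHL2 and KLF5, factors of epithelial identity, at 190, 154 and 127 CPM in WT. Of 26 other gut, liver and pancreas factors 12 were tested and 0 were called either with or without the block, with a median of 0.17. CDX1, GATA4, GATA5, PDX1, SOX17 and PTF1A had counts of 0 in all libraries. Of 7 other factors of ciliogenesis 6 were tested and 0 called, with a median of -0.24, and MCIDAS, which acts upstream of FOXJ1, had 34 to 58 counts per library.

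Genes known to be driven by NKX2-1 were present in part, and 16 of 25 in the list could be tested, NAPSA and ABCA3 among them. The 25 alveolar and club cell genes summed to 364 to 424 CPM in WT and 357 to 474 in the clones. SCGB1A1 and SCGB3A1 had a count of 0 in all libraries, SFTPC had at most 2 counts and SFTPB at most 1, so these surfactant and secretory genes were absent or nearly so. SFTA3, the gene next to NKX2-1, had 868 to 1632 counts per library in WT and 848 to 1310 in the clones. Of 16 tested genes of the list, 3 rose and 3 fell in the blocked mean of the clones, with a median of 0.05. CTSH, a lysosomal protease that processes surfactant protein, fell from 13.9 and 32.8 CPM in WT to between 0.170 and 0.491 in the clones, a log2 difference of -6.11 blocked (adjusted p = 7.65e-07) and -6.18 without the block (0.0278). AQP4, a water channel, passed the filter only through WT and fell by 6.43 (adjusted p = 3.17e-04 blocked and 0.0908 without), and CTSH was the only gene of this list called without the block, and that call ended with any 1 of the 6 libraries left out (adjusted p = 0.0669 to 0.242). Without WT replicate 2 the difference was -5.46 blocked and -5.43 not blocked. NAPSA, another protease of that pathway, fell by 0.92 on the log2 scale (adjusted p = 0.0212), and SELENBP1 (0.82, 0.00761) and ABCA3, the lipid transporter of lamellar bodies (0.83, 0.0293), rose. NAPSA also lost its call without WT replicate 1 (0.0751) and SELENBP1 without WT replicate 2 (0.0627). ABCA3 lost it without WT replicate 2 (0.36, adjusted p = 0.437) and turned to -0.18 when C1 replicate 2 was left out of the fit without the block.

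No gene of the list that FOXJ1 is known to switch on was called higher beside it. Of 20 genes of the motile cilium 14 were tested, 0 rose and 1 fell, SPEF2 (-0.91, adjusted p = 0.0460, and 0.297 without WT replicate 2), and the median was 0.04. DNAI2 and DNAH9, dynein arm genes that define multiciliated cells, had counts of 0 in all libraries. The most abundant genes of the list were DNAH5, CAPS and CCDC40, and their summed list ran from 86.9 to 114 CPM in WT and from 58.6 to 133 in the clones.

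Few genes of stomach and intestine had enough counts to be tested. Of 18 gastric genes 6 were tested, and 2 rose and 1 fell with the block; 1 of the 6, ANXA10, passed the filter on low counts only through the clones. MUC5AC, the gel-forming surface mucin, rose from 7.83 and 2.69 CPM in WT to between 13.9 and 18.7 in the clones (1.71, SE 0.38, adjusted p = 0.0338 blocked and 0.353 without the block), and VSIG1, a junction protein of gastric epithelium, rose by 0.75 (0.0258 and 0.628). The blocked MUC5AC difference was 2.57 without WT replicate 1 and 1.06 without WT replicate 2, and its call ended without C2 replicate 1 (0.0527) or C2 replicate 2 (0.110). VSIG1 lost its call without C1 replicate 1 (0.0670) as well as without either C2 library. AGR2 was the most abundant, at 208 to 292 CPM over the libraries, and was not called. GKN1, GKN2 and TFF2 had counts of 0.

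Of 23 intestinal genes known as CDX2 targets, 5 passed the filter on low counts. HEPH, MUC13 and VIL1 passed it only through the clone libraries, where they are high, so the number of this list that was called is no measure of the list. These 3 rose with the block and none was called without it, and every CDX gene was at 0. HEPH, a ferroxidase of enterocytes, had 0.256 and 1.11 CPM in WT and 3.33 to 8.23 in the clones (3.28, SE 0.42, adjusted p = 0.00128 blocked and 0.213 without). MUC13, a membrane mucin, had 0.576 and 0.303 CPM in WT and 1.37 to 4.35 in the clones (2.88, SE 0.38, adjusted p = 3.88e-04 and 0.192). VIL1, the villin of brush borders, rose by 1.70 (adjusted p = 0.00582 and 0.770), with WT replicate 2 at 1.78 CPM above the replicate 1 libraries of both clones. GPA33, a surface antigen of intestinal epithelium, had 14.9 and 8.92 CPM in WT and 28.5 to 71.2 in the clones and was not called (2.11, adjusted p = 0.0701 and 0.205). Other genes of the list stayed near the floor: CDH17, LGALS4, KRT20 and MUC2 had at most 9 counts in any library, and SI, TFF3, PHGR1, TM4SF5 and CEACAM7 had 0. The summed level of the list was 14.2 to 17.2 CPM in WT and 43.5 to 83.4 in the clones. GPA33, which was not called, is the most abundant gene of the list and weighs most in this sum. The sum is therefore no measure of the list either. Blocked, MUC13 was called whichever of the 6 libraries was left out, HEPH lost its call without C2 replicate 2 (adjusted p = 0.0605) and was 4.23 higher without WT replicate 2, and VIL1 lost it without either C2 library (0.0765 without replicate 1 and 0.158 without replicate 2) and without WT replicate 2 (0.197).

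The MUC13 promoter window holds the reverse complement of the HNF4 letters 51 to 43 bases before the start. HNF4A had no counts, and HNF4G, its paralogue, did, as given above. Neither binding of the window nor a link of the match to the MUC13 level was tested. The window lies at chr3:124934752-124935001 on the minus strand of GRCh38.p14, with the match in capitals.
MUC13: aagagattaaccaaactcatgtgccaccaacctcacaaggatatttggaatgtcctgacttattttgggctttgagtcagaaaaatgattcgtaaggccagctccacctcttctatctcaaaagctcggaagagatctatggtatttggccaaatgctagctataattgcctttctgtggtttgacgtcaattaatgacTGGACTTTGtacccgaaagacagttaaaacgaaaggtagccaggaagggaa
All the motif letters given above were also searched in the windows of HEPH, CTSH, DNAH5, NAPSA, SPEF2 and S100A2. The first of 3 HEPH windows and the CTSH window held the GATA letters, and the DNAH5 window held the SOX letters. No match was found for NAPSA, SPEF2 or S100A2. The RefSeq table held no entry for VIL1 or HNF4G.

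Of 26 liver genes known as HNF4A targets 7 were tested, 0 rose and 1 fell, UGT2B7 (-1.96, adjusted p = 0.0317). That call ended without WT replicate 2 (0.440), C1 replicate 2 (-1.41, 0.373) or either C2 library (-3.56 without replicate 2), and APOB, TTR, FGA, APOA4 and AMBP had counts of 0. Of 16 squamous and basal genes that SOX2 and p63 are known to serve, 10 were tested. With the block 0 rose and 7 fell, beside 4.12% and 5.63% of all genes, and 0 were called without it. TRIM29 and CLCA2, among the 7, and KRT14 passed the filter only through WT, where they are high. The number of this list that was called is thus no measure of the list. S100A2 fell from 216 and 213 CPM in WT to between 43.3 and 84.7 (-1.59, SE 0.19, adjusted p = 9.40e-04 blocked and 0.105 without). SFN, the epithelial 14-3-3 sigma, fell by 1.04 (0.00579 and 0.397, and 0.0900 blocked without C2 replicate 1), and TP63, the most abundant factor of the list, was not called (-1.17, adjusted p = 0.286). KRT5 had 0 or 1 count per library. The summed list ran from 392 to 565 CPM in WT and 126 to 283 in the clones. S100A2, the most abundant gene of the list, made up 216 and 213 CPM of the WT sums. The sum is therefore no measure of the list either.

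**Figure D4:**
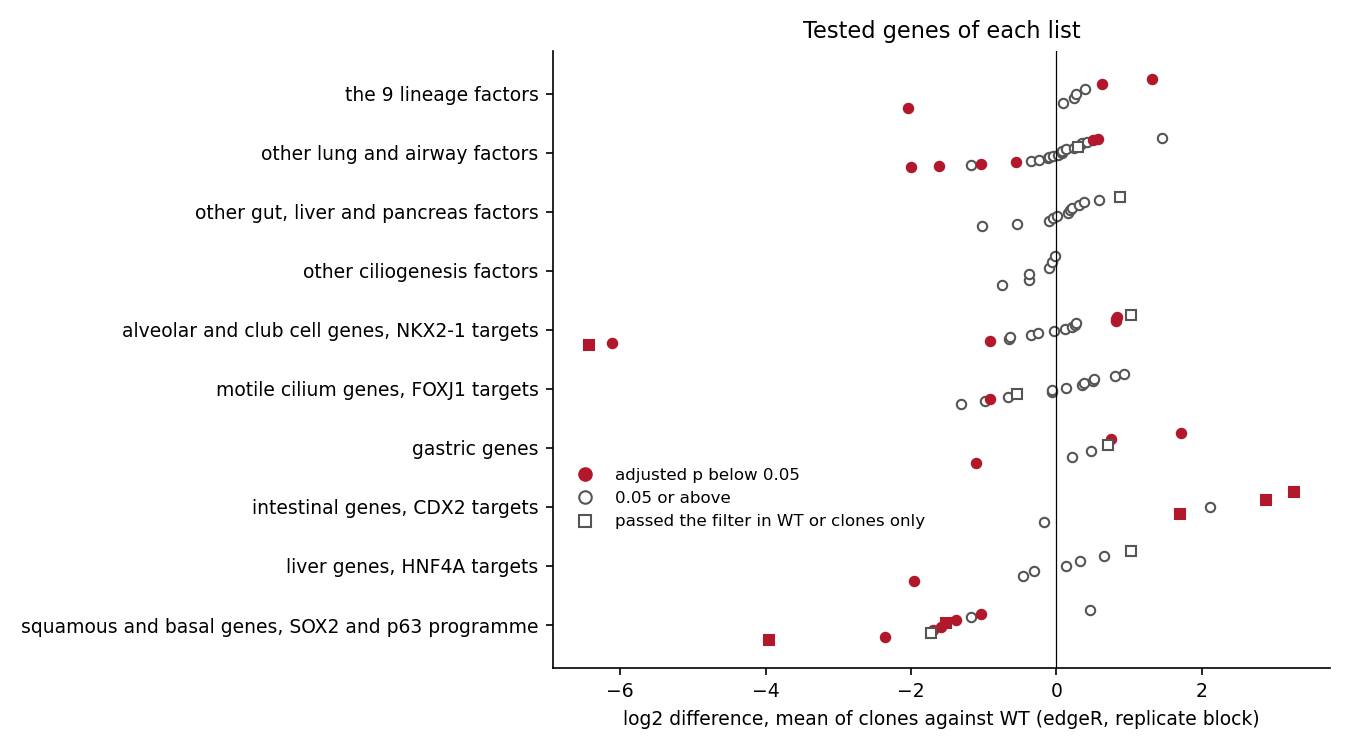
Log2 difference of the mean of the clones from WT in the blocked edgeR fit (horizontal axis) for the tested genes of each list (rows), red where the adjusted p was below 0.05, white otherwise, with squares for genes that passed the filter on low counts only through WT or only through the clones. HEPH (3.28), MUC13 (2.88) and VIL1 (1.70) of the intestinal list are red squares, and S100A2 (-1.59) of the squamous list is a red circle.

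Markers of other cell types were checked in the same libraries. All 10 epithelial markers were tested and summed to 6159 to 6415 CPM in WT and 6944 to 8404 in the clones, with EPCAM called higher (0.50, adjusted p = 0.0273) and MUC1 lower (-1.17, 0.00981) with the block. Both lost the call without either WT library (0.0926 and 0.0694 for EPCAM, 0.0807 and 0.0591 for MUC1). Immune markers summed to 3.90 to 5.65 CPM in WT and 2.88 to 5.11 in the clones with 0 called, and PTPRC had 3 to 13 counts. Neuroendocrine markers summed to 4.17 to 4.19 and 2.20 to 2.91 CPM, with INSM1, GRP and CALCA at 0. Fibroblast markers summed to 49.8 to 62.1 and 39.5 to 71.0 CPM, led by COL1A1 and LUM. COL3A1 passed the filter on low counts only through WT, where it is high. Of the 3 tested, COL3A1 was called lower with the block (-3.78, adjusted p = 5.31e-04, from 12 and 77 counts in WT to 1 to 6 in the clones), which ended without WT replicate 2 (-2.53, 0.0866). Endothelial markers summed to 24.8 to 38.8 and 27.1 to 65.9 CPM, with KDR (0.81, adjusted p = 0.0147) and CDH5 (1.54, 0.0249) called higher with the block. CDH5 was 2.5 without WT replicate 1 and lost its call without WT replicate 2 (0.93, 0.190). No marker of these 5 lists was called without the block. In these bulk libraries fewer cells of a type and less RNA per cell cannot be told apart, and the part of other cells in the values of the factors was not tested. Libraries held 27527867 to 37146270 gene counts.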

How the data were processed

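The authors deposited raw counts of reads for each gene, not normalized, 1 column per library, with 5 HTSeq summary rows that were left out (21.3% to 22.4% of the reads listed). Per the submitters' processing notes, cutadapt 1.6, STAR 2.5.0a, HTSeq 0.5.3 and the build hg19 were used; the strand setting and the annotation release are not given in the sources used here. Groups and replicate numbers come from the titles. Replicates of a group differed beyond sampling noise, with a chi-square of 62.5 to 82.0 per gene. The spread that p-values rest on is that of these libraries and may be technical.

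The analysis used edgeR 4.0.16 in R 4.3.3: TMM scaling, filterByExpr (17129 genes kept), robust quasi-likelihood F tests with all 6 libraries in 1 fit, and Benjamini-Hochberg adjustment. Log2 CPM used a prior count of 2. The fit without the block had 1 mean per group and 3 residual degrees of freedom. A fit that added the replicate number as a replicate block had 2. Across genes, libraries of 1 number deviated together from their group means, with correlations of 0.584 (WT and C1), 0.634 (WT and C2) and 0.701 (C1 and C2), and the numbers were therefore treated as pairs. This pairing comes from the data and not from the labels, and the blocked calls rest on it. Alternatives were other size factors, DESeq2 1.42.0, no filter on low counts, the block, and leaving out each library.

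The factors and the 16 gene lists were chosen with earlier results of these data known. Genes were named by rule: all 9 factors; from each list up to 4 genes called in the blocked mean of the clones with a mean log2 CPM of at least 1, by size, and the 3 most abundant; from each family up to 3 of each kind; and 3 nearest profiles per factor. Other genes are named as defining markers, as neighbours of a factor, or because they had counts of 0 or a value chosen after it was seen (GPA33 and CDH5 are among the most abundant of their lists). Exon lengths and overlaps came from GENCODE 29 and promoters from RefSeq; neither is on hg19, so counts were joined by gene identifier or symbol and no hg19 coordinates are given.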

Additional observations from a re-analysis of the deposited data

Results flagged for a closer look

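The difference between clones and WT turned its sign with the replicate number for NKX2-1 and FOXA2, and whether the clone effect differs between the numbers was not tested, with 1 library per group and number. For NKX2-1 it was -0.41 in C1 and -0.37 in C2 within replicate 1, and 0.62 and 0.64 within replicate 2, on the log2 CPM scale. For FOXA2 it was -0.038 and -0.037 within replicate 1, and 0.43 and 0.65 within replicate 2. Such a turn was seen in 18.4% of all genes tested.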

How the results depend on the processing

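The counts of called genes depended on the fit. The edgeR fit with no block gave 2 genes for C1, 2 for C2 and 34 for the mean of the clones. DESeq2 called 270, 209 and 393, no filter on low counts gave 296, 209 and 436, and the replicate block gave 1204, 777 and 1669. With 1 library left out, with and without the block, the counts ran from 0 to 1776 in C1, 0 to 1756 in C2, 0 to 2277 in the mean of the clones and 0 to 343 for C2 against C1, and for replicate 2 against replicate 1 from 617 to 4849. Of these, the fits without the block called at most 1, 0 and 3 genes in C1, C2 and their mean. The blocked fits called as few as 178, 2 and 208 without C2 replicate 1, and 199, 8 and 213 without C2 replicate 2. A library left alone in its group is assumed to vary like the others.

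FOXA1 and FOXJ1 stayed positive and FOXA3 negative against WT in every setting run. NKX2-1 turned to 0.074 in C1 with the replicate block, and in the mean of the clones to 0.088 with the block and 0.0031 with no filter. With 1 library left out NKX2-1 ran from -0.51 to 0.74 in C1, -0.48 to 0.77 in C2, -0.50 to 0.76 in the mean of the clones and -0.27 to 0.31 for C2 against C1. FOXA2 ran from -0.19 to 0.61, -0.085 to 0.71, -0.14 to 0.66 and -0.15 to 0.34 in the same order. SOX2 ran from -0.047 to 0.50 in C2 and -0.36 to 0.18 for C2 against C1, where FOXJ1 ran from -0.78 to 0.26 and FOXA3 from -0.75 to 1.24. ABCA3 ran from -0.18 to 2.89 in the mean of the clones. The cause was not tested. Over the 7 factors, 413 values under an alternative kept their direction and call, 46 became called, 2 lost their call and 43 turned.

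With 2 libraries per group and 3 or 2 residual degrees of freedom, a difference that missed the threshold is not shown to be absent. FOXA3, with 5 to 68 counts per library, is limited by depth.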
